A study of Mus musculus with 6 samples.

Results

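The miR-30 family was followed in the small RNA of mouse round spermatids with and without MIWI. The family was taken as every miRNA entry of the deposited small RNA table named mmu-miR-30a, 30b, 30c, 30d or 30e, of either arm. That rule gave 11 of 1900 miRNA entries, 5 of them 5p arms and 6 of them 3p arms, since both miR-30c hairpins have a 3p entry. The rule uses names and no measured value. The samples were purified round spermatids, haploid cells produced by meiosis, from testes of C57BL/6 mice aged 21 days after birth. The 3 KO samples carried the global Miwi knockout, and the 3 WT samples were wild type. MIWI (PIWIL1) is a PIWI protein that binds pachytene piRNAs in these cells, and the study asked whether its loss alters the small RNA of the cells. Per the series' design text, spermatid development in KO males does not go beyond early round spermatids, and the labels do not give the spermatid steps of either preparation. The labels do not say that the replicates are separate animals, so each p-value reflects the spread among these samples alone, part of which may be technical.

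A miRNA hairpin is cut by Drosha and then by Dicer into a short duplex. An Argonaute protein keeps 1 strand, the guide, and the other, the passenger, is mostly lost. Targets are recognised mainly through the seed, bases 2 to 8 of the guide. In the miR-30 family the 5p arm is the usual guide in most tissues, and its members share the seed of the 5p arm, so they are expected to recognise overlapping sets of mRNAs. The mouse Mir30 genes lie in small clusters, each giving more than 1 member. miRNAs do not need PIWI proteins for their maturation, and piRNAs do not need Drosha or Dicer.

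RefSeq sequences (build GRCm38.p6) matched 7 of the 11 entries. The lengths were equal in 7 of 7 after 20 nt were subtracted from the length given for each entry in the deposited counts. The entries with no match were miR-30b-5p, miR-30b-3p, miR-30d-5p and miR-30d-3p. The 5p arms are shown with the seed, bases 2 to 8, in capitals, because the seed is what the family shares and the bases after it are what tells the members apart.
miR-30a-5p: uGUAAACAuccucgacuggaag
miR-30c-5p: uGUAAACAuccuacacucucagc
miR-30e-5p: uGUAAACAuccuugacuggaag
Among the 1679 mature miRNA names of the RefSeq table, which holds none of these 4 entries, the seed GUAAACA was found in 4, the 3 above and miR-384-5p, which had 1 count in all 6 libraries together. miR-30a-5p and miR-30e-5p differ by 1 base, C13U, counted from 1 at the 5′ end of miR-30a-5p. miR-30a-5p and miR-30c-5p differ at 5 positions, the first of them 13. The deposited counts therefore split miR-30a-5p from miR-30e-5p by 1 internal base, and how reads matching both were assigned is not known here.

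The 3p arms fall into 2 seed groups and are shown because the only change past the threshold in the family lay in one of them.
miR-30a-3p: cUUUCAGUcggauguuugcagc
miR-30e-3p: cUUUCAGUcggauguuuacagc
miR-30c-1-3p: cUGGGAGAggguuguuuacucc
miR-30c-2-3p: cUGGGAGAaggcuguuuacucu
miR-30a-3p and miR-30e-3p share the seed UUUCAGU and differ by 1 base, G18A. The miR-30c-1-3p and miR-30c-2-3p arms share the seed UGGGAGA and differ at 3 positions. The hairpins of these RNAs lie in 2 clusters. Mir30a (chr1:23272269-23272339, plus strand) lies 19362 nt from Mir30c-2 (chr1:23291701-23291784, plus strand), which falls in an exon of the lincRNA gene Gm27028. Mir30c-1 (chr4:120769534-120769622) and Mir30e (chr4:120772606-120772697) lie on the minus strand, 2984 nt apart, within introns of Nfyc, which codes for a subunit of the transcription factor NF-Y. A further gene, Mir30f, is annotated on the opposite strand at Mir30e, and its entry, which the rule leaves out, had 3, 3 and 5 counts in the KO libraries against 7, 3 and 6 in WT. The mature miR-30c-5p comes from both clusters and cannot be assigned to one of them.

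Totals over the table ran from 747443 to 1335013 counts for KO libraries, against 3114845 to 5037232 for WT libraries. Counts of miRNAs summed to 146487 to 243655 in KO and 179761 to 246030 in WT, which is 18.1% to 19.6% of the KO tables and 4.88% to 5.96% of the WT tables. Levels are given below in RPM, counts per 1000000 miRNA counts of the library, so that each library is measured against its own miRNAs. The choice matters, because on that scale 79.3% of 26032 tested RNAs fell and 5.53% rose, most of the table being piRNA entries. The late germ cell miRNA miR-34b-5p was the most abundant miRNA, and miR-34b-5p, miR-34c-5p and miR-449a-5p together made 317539 ± 20024 RPM in KO and 282664 ± 8361 in WT (SD, n = 3 each), without overlap. Among markers of other cell types, the summed level of 6 mesenchymal miRNAs was 20891 ± 2676 in KO and 28725 ± 4938 in WT, again without overlap, and 5 of the 6 fell. Of 3 erythroid miRNAs, 1 was tested and fell, and of 5 leukocyte miRNAs 1 rose. The 2 endothelial, 2 Sertoli and gonadal and 4 spermatogonial markers were not called and their sums overlapped. Among all 327 tested miRNAs 7.34% rose and 14.7% fell, and 34.6% did not overlap between the genotypes. With adjustment over these miRNAs alone, leukocyte miR-155-5p and mesenchymal miR-145a-5p lost their calls (edgeR adjusted p = 0.0501 and 0.0938). No marker was at 0 in all libraries. The part of these cell types in the results below was not tested, and in bulk samples fewer cells of a type and less RNA per cell cannot be told apart.

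The miR-30 family took about the same part of the miRNA pool in both genotypes. Its share of all miRNA counts was 6.22%, 6.86% and 6.94% in the KO libraries and 6.45%, 6.61% and 7.61% in the WT libraries. The groups overlapped: KO replicate 1 was the lowest of the 6 libraries, WT replicate 3 the highest, and the other 4 lay between them. The means were 6.67 ± 0.399% in KO and 6.89 ± 0.632% in WT (SD, n = 3 each), a ratio of 0.969. The Wilson 95% intervals of single libraries, which cover counting error only, ran from 6.12% to 6.31% for KO replicate 1 and 6.84% to 7.05% for KO replicate 3, and from 6.33% to 6.56% for WT replicate 1 and 7.51% to 7.72% for WT replicate 3. Libraries of 1 genotype thus differed by more than counting error. With the 10 highest miRNAs, miR-30c-5p among them, left out of the family and the total, the share was 9.94 ± 0.724% in KO. In WT it was 10.5 ± 0.867% (SD, n = 3 each), and the groups overlapped there too.

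Against the whole small RNA table the counts of the full family looked different. The family made 1.13%, 1.34% and 1.27% of all counts in KO and 0.372%, 0.394% and 0.372% in WT, which is 3.29 times as much in KO. All 3 KO libraries were above all 3 WT libraries on this scale. The share of all miRNAs in the table moved in the same direction, as the depths above show, and without an external standard a higher miRNA level per cell and fewer counts of the other RNAs cannot be told apart. In the let-7 family, a large miRNA family that accumulates as cells differentiate, the share of miRNA counts was 4.21 ± 0.690% in KO and 2.97 ± 0.194% in WT, a ratio of 1.42 without overlap. In the miR-181 family it was 0.0665 ± 0.00524% in KO and 0.0967 ± 0.0158% in WT, a ratio of 0.688 without overlap. Of the 3 families, miR-30 is the one whose libraries overlapped between the genotypes, and no test of the difference between families was made. Of the 327 tested miRNAs, taken singly, 34.6% did not overlap in RPM, so overlap is not particular to miR-30.

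**Figure D1:**
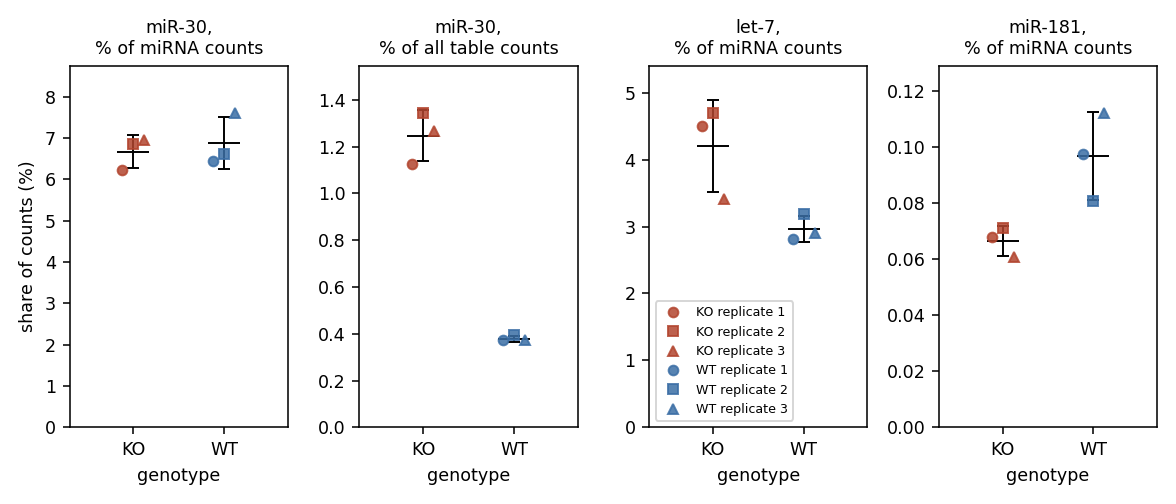
Share of counts in each library (y axis, percent) for the miR-30 family against miRNA counts, the miR-30 family against all table counts, let-7 and miR-181; points are libraries, black bars the mean and SD of 3. The miR-30 share of miRNA counts overlaps between KO and WT, at means of 6.67% and 6.89%, while its share of the whole table is 1.25% in KO and 0.379% in WT.

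The 5p arms, the usual guides, carried nearly all of the family. Their share of miRNA counts was 6.61 ± 0.399% in KO and 6.83 ± 0.625% in WT (SD, n = 3 each). The order of the members was the same in both genotypes by mean level, with miR-30c-5p and miR-30b-5p at the top, miR-30d-5p and miR-30a-5p next and miR-30e-5p last. Library ranges overlapped within the first pair and within the second pair in both genotypes, so neither pair can be ordered, and the steps between the pairs and down to miR-30e-5p were larger than the spread in both.

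mmu-miR-30c-5p, the product of Mir30c-1 and Mir30c-2, ranked 9th among miRNAs in KO and 9th in WT. It stood at 20235, 22678 and 23217 RPM in KO and at 21378, 20155 and 24229 in WT. The 2 sets of libraries interleaved, and the log2 change was 0.01 ± 0.16 (SE; adjusted p = 0.963, edgeR's quasi-likelihood test with Benjamini-Hochberg adjustment over all 26032 RNAs, as in the tests below). The 95% interval of −0.31 to 0.32 leaves room for a change of either sign. mmu-miR-30b-5p stood at 19051, 22685 and 20533 RPM in KO and at 19164, 21058 and 21282 in WT. KO replicate 2 was the highest library and KO replicate 1 the lowest, so both ends of its range were KO. Its log2 change was 0.02 ± 0.16 with an interval of −0.30 to 0.33 (adjusted p = 0.918, edgeR).

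mmu-miR-30d-5p stood at 9691, 9564 and 9189 RPM in KO and at 9101, 9682 and 12559 in WT. The KO libraries were close together and WT replicate 3 stood above all others. The log2 change was −0.14 ± 0.16 (adjusted p = 0.421, edgeR), and 0.014 without WT replicate 3. mmu-miR-30e-5p stood at 4477, 4649 and 5853 RPM in KO and at 4784, 4693 and 5755 in WT. Replicate 3 was the highest library in each genotype, and the log2 change was −0.02 ± 0.17 with an interval of −0.36 to 0.32 (adjusted p = 0.896, edgeR).

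mmu-miR-30a-5p had the lowest log2 value of the 5p arms. It stood at 8030, 8267 and 10043 RPM in KO and at 9479, 9994 and 11653 in WT. The groups overlapped through KO replicate 3, which was above 2 of the WT libraries. Its mean was 8780 ± 1100 in KO and 10375 ± 1136 in WT (SD, n = 3 each), and the log2 change was −0.24 ± 0.16 with an interval of −0.57 to 0.09, which did not pass (adjusted p = 0.165, edgeR). The changes of the 5p arms thus lay between −0.24 and 0.02 on the miRNA scale.

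**Figure D2:**
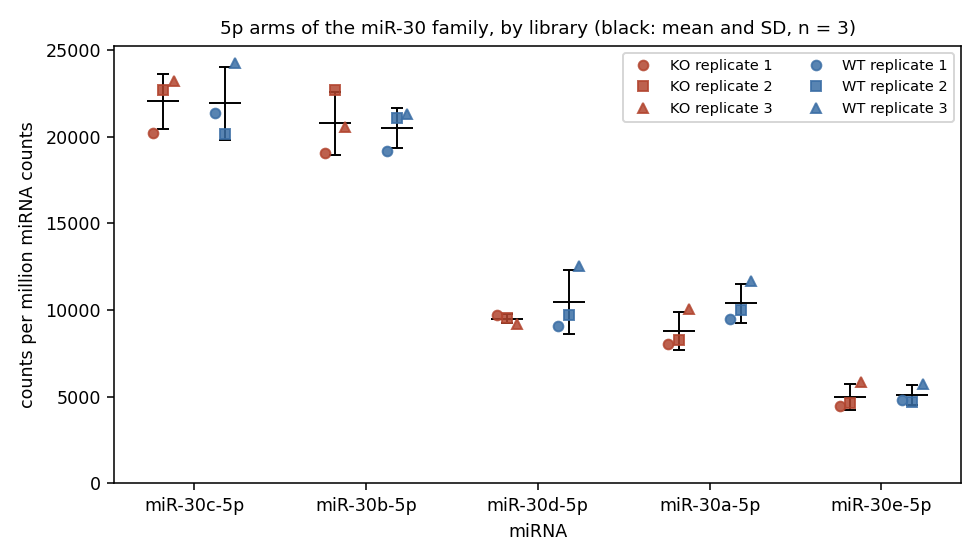
Level of each 5p arm in every library, in RPM of miRNA counts (y axis), with KO left of WT; points are libraries and black bars the mean and SD of 3. The KO and WT libraries overlap for all 5 RNAs, and miR-30c-5p and miR-30b-5p, at 19051 to 24229, stand above the other 3.

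The 3p arms, the usual passengers, were far less abundant, and only 3 of 6 passed the filter on low counts. miR-30a-3p was higher in KO. Its raw count was 78, 57 and 76 for KO and 36, 38 and 59 for WT, which is 332, 389 and 312 RPM in KO and 200, 194 and 240 in WT. Every KO library was above every WT library. The mean was 344 ± 40.0 RPM in KO and 211 ± 24.9 in WT (SD, n = 3 each), and the log2 change was 0.69 ± 0.25 with an interval of 0.19 to 1.19 (adjusted p = 0.0103, edgeR). With each library left out in turn the log2 change was 0.60 to 0.79 and stayed past the threshold, with edgeR adjusted p between 0.00262 and 0.0438. The adjustment runs over a table in which 84.8% of RNAs were called, which leaves it little stricter than the unadjusted p of 0.00822. When the p-values of the same edgeR fit were adjusted over the 327 tested miRNAs alone, an alternative added after the data were seen, miR-30a-3p had an adjusted p of 0.0689 and was no longer called. By that rule 4.28% of the miRNAs rose and 6.73% fell.

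Its near copy miR-30e-3p, which differs by the base G18A, was counted 53, 51 and 56 times in KO, against 46, 36 and 69 times in WT. The scaled levels were 226, 348 and 230 RPM in KO and 256, 183.6 and 280 in WT. They overlapped, with the highest value in KO replicate 2 and the lowest in WT replicate 2, and the log2 change was 0.13 ± 0.26 (adjusted p = 0.657, edgeR). The counts of both 3p arms are small, and the split of reads between near-identical RNAs is uncertain. miR-30c-2-3p was counted 16, 4 and 7 times in KO, against 7, 11 and 19 times in WT, and its log2 value of −0.45 ± 0.43 did not pass (adjusted p = 0.323, edgeR). It ran from −1.04 without KO replicate 1 to −0.15 without WT replicate 3, and did not pass with any library left out (edgeR adjusted p = 0.0818 to 0.780).

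The untested 3p arms were near the limit of detection. For miR-30b-3p the KO libraries held 5, 2 and 3 counts, the WT libraries 3, 4 and 2. miR-30c-1-3p had 4, 0 and 3 counts in KO libraries and 5, 3 and 2 in those of WT. For miR-30d-3p these were 2, 1 and 1 in KO, against 1, 2 and 7 in WT. No difference was detectable at this depth for these RNAs.

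**Figure D3:**
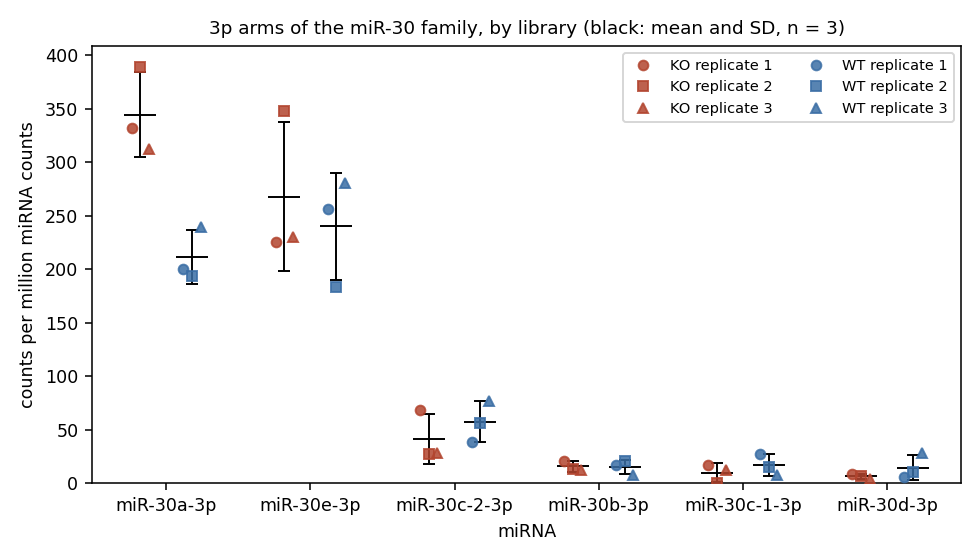
Level of each 3p arm in every library, in RPM of miRNA counts (y axis), with KO left of WT; points are libraries and black bars the mean and SD of 3. For miR-30a-3p the KO libraries, at 312 to 389, lie above the WT libraries, at 194 to 240, and the other 3p arms overlap.

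Counted over the tested members, 1 of 8 rose and 0 fell by edgeR's adjusted p. Over all 327 tested miRNAs 7.34% rose and 14.7% fell in the same fit, so the count in the family is close to the background. The count of members that fell was 0 also by DESeq2 with miRNA size factors and at an unadjusted edgeR p under 0.05. With a replicate block it was 1, miR-30a-5p at −0.24 (edgeR adjusted p = 0.0409), though the replicate numbers were not taken as pairs. In 1 of 8 tested members the KO and WT libraries did not overlap, against 34.6% of all tested miRNAs. The median log2 change was −0.01 over the 8 members, 3 of 6 3p arms being left out by the filter, and −0.12 over the 327 miRNAs. The middle of the miRNA distribution reached from −0.42 to 0.15 (25th to 75th percentile), and the median size of a change was 0.13 for the members and 0.30 for all miRNAs. Counting error is smaller at high counts, and the 5p arms rank from 10 (miR-30c-5p) to 33 (miR-30e-5p) among miRNAs. No background of like abundance was taken, so these medians do not show that the family is more stable than other miRNAs.

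The direction of the miRNAs depends on the scaling. TMM factors of the miRNAs moved the median of all miRNAs by 0.11 on the log2 scale, and called 10.7% as higher and 9.17% as lower. On that scale the 5p arms lay between −0.12 and 0.14, and miR-30a-3p rose by 0.80 (adjusted p = 0.00273, edgeR). TMM factors of the whole table moved the median of the miRNAs by 1.93, and called 97.1% of 348 tested miRNAs as higher and 0.575% as lower, with 34.9% of all RNAs higher and 41.3% lower. All 8 tested members were then called as higher, at 1.47 to 2.62, around a median of 1.81 for all miRNAs. miR-30a-3p was the highest member in each of these 3 scalings.

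**Figure D4:**
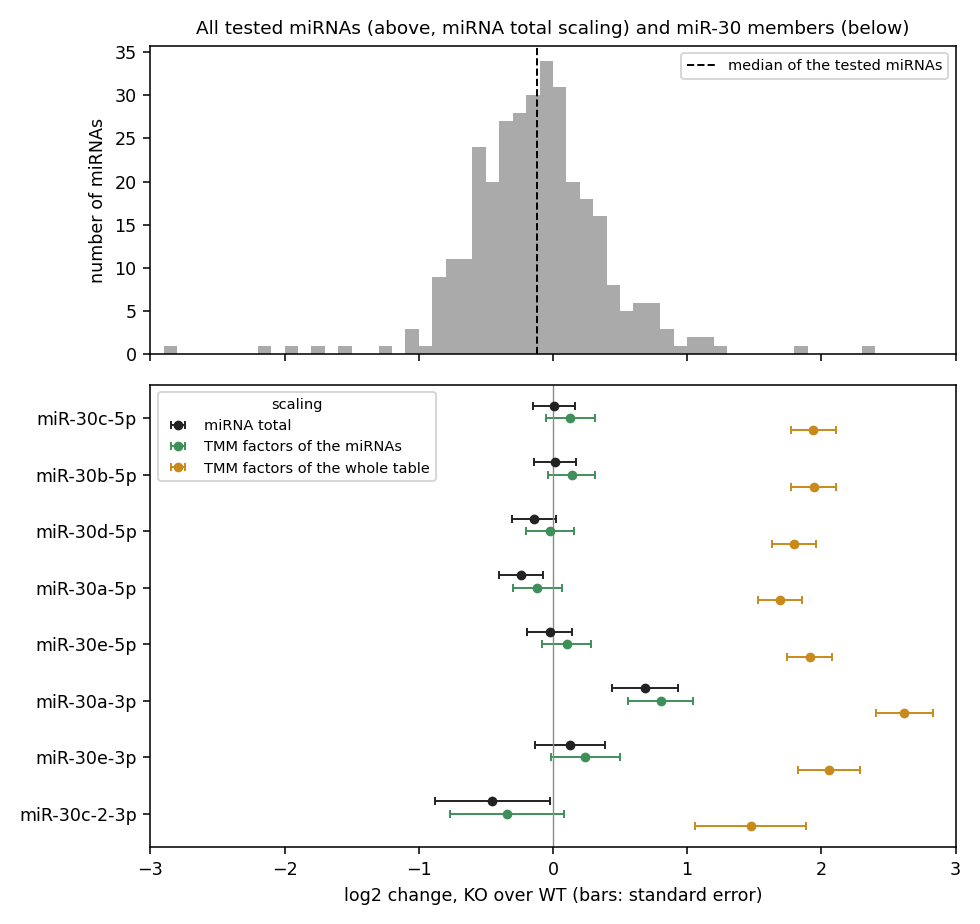
Distribution of the log2 change, KO over WT, of the 327 tested miRNAs on the miRNA scale (above; y axis, number of miRNAs), and the log2 change with its standard error of the 8 tested members under 3 scalings (below). The 5p arms lie at −0.24 to 0.02 on the miRNA scale, near the miRNA median of −0.12, and miR-30a-3p at 0.69.

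Since both arms of a hairpin are counted in the same library, their ratio within it does not depend on the scaling. The 3p arm of miR-30a made 3.97%, 4.50% and 3.01% of the counts of both arms in KO and 2.07%, 1.90% and 2.02% in WT. The WT libraries were close together and all 3 KO libraries were above them. The mean was 3.83 ± 0.752% in KO and 2.00 ± 0.0849% in WT (SD, n = 3 each), a ratio of 1.92. By the two-sided exact permutation test p was 0.1, the smallest that 3 against 3 libraries allow, and 0.5 after Benjamini-Hochberg adjustment over the 5 hairpins. In a limma fit of the log2 ratio of minor to major arm over 68 hairpins, added after the data were seen, the ratio of miR-30a was 0.94 ± 0.24 higher in KO, with an interval of 0.42 to 1.47 (adjusted p = 0.0224, limma). This ratio holds both the 3p arm, at a log2 change of 0.69, and the 5p arm, at −0.24, which did not pass (adjusted p = 0.165, edgeR). It uses the same 3p counts as the edgeR test and is not independent of it. Of the 68 hairpins, miR-30a included, 5.88% had a higher and 4.41% a lower minor arm ratio in KO by limma's adjusted p. In 26.5% the KO and WT shares did not overlap. The limma call held without KO replicate 3 (adjusted p = 0.0139) and was lost without any 1 of the other 5 libraries, at log2 ratios of 0.81 to 0.97 and adjusted p of 0.0673 to 0.128.

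The other hairpins showed no such separation. The 3p arm of miR-30e made 4.80%, 6.97% and 3.78% of both arms in KO and 5.08%, 3.77% and 4.65% in WT, and the groups overlapped (exact permutation p = 0.6; limma log2 ratio 0.18 ± 0.28, adjusted p = 0.710). KO replicate 2 stood apart at the top. For miR-30c, with both 3p arms summed, the share was 0.239 ± 0.159% in KO and 0.338 ± 0.0236% in WT (SD, n = 3 each). For miR-30d it was 0.0679 ± 0.0218% in KO and 0.131 ± 0.0854% in WT, and for miR-30b 0.0773 ± 0.0298% in KO and 0.0740 ± 0.0314% in WT. These shares rest on few 3p counts per library and overlapped between the genotypes. The 5p arm held the larger part of every hairpin, with the lowest mean for miR-30e at 94.8% in KO and 95.5% in WT. Whether the change in miR-30a differs from that in miR-30e was not tested.

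**Figure D5:**
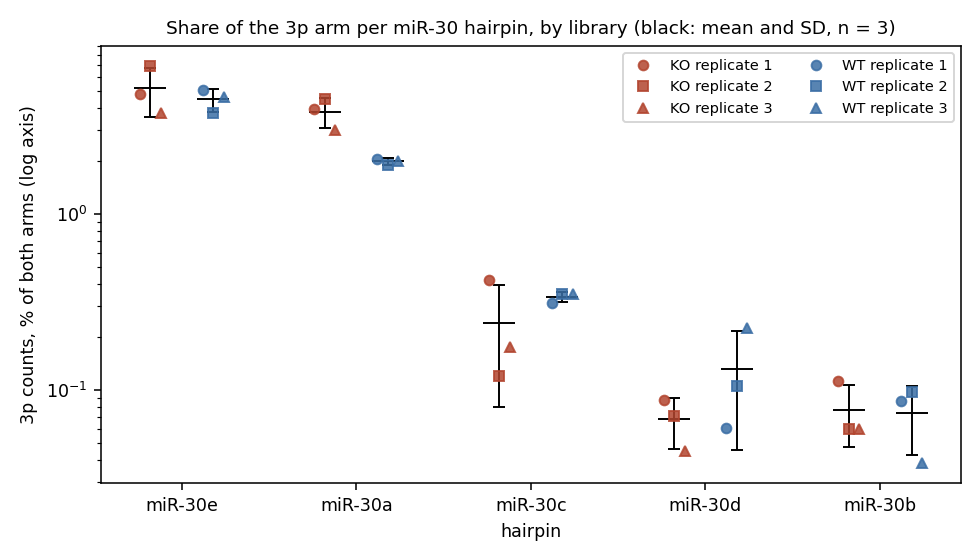
Share of the 3p arm in the counts of both arms of each hairpin (y axis, percent, log axis) in every library, with KO left of WT; points are libraries and black bars the mean and SD of 3. For miR-30a the KO libraries lie at 3.01% to 4.50% and the WT libraries at 1.90% to 2.07%, while the other 4 hairpins overlap.

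Within the 5p counts the mix of members was similar in both genotypes. miR-30c-5p made 33.4 ± 0.414% of the 5p counts in KO and 32.1 ± 1.36% in WT, and miR-30b-5p made 31.4 ± 1.84% in KO and 30.1 ± 1.96% in WT. miR-30d-5p made 14.4 ± 1.24% in KO and 15.2 ± 1.26% in WT, and miR-30e-5p 7.55 ± 0.856% in KO and 7.42 ± 0.241% in WT (SD, n = 3 each). These members overlapped between the genotypes. miR-30a-5p did not, at 13.1%, 12.2% and 14.6% in KO and 14.8%, 15.2% and 15.4% in WT, although its RPM levels overlapped. By RPM level 34.6% of all tested miRNAs did not overlap, and no such background was counted for shares within a family.

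Ratios between members were compared in all 10 pairs of 5p arms, and the differences lay between −0.26 and 0.14 on the log2 scale. The ratio of miR-30a-5p to miR-30c-5p was lower in KO by a difference of −0.25, and that of miR-30a-5p to its near copy miR-30e-5p by −0.21, both without overlap (exact permutation p = 0.1 each, adjusted p = 0.5 over the 10 pairs). In the other 8 pairs the libraries overlapped. At 3 libraries against 3, no pair could reach 0.05.

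The 5 miRNAs whose profile over the 6 libraries was nearest to that of the family's summed level were sought among 182 miRNAs with a mean of at least 50 counts. Likeness was the root mean square difference of centred log2 levels. miR-126a-3p, an endothelial miRNA, was nearest at 0.0459, then miR-324-5p at 0.0736, miR-29a-3p at 0.0765, miR-19b-3p of the miR-17-92 cluster at 0.0783 and miR-7a-5p at 0.0812. The median candidate was at 0.251. The 5p arms themselves were between 0.0452 for miR-30c-5p and 0.127 for miR-30a-5p. miR-30a-5p, miR-30d-5p at 0.106 and miR-30e-5p at 0.0979 were farther from the family's own sum than these 5 miRNAs were. No conclusion follows from that, since the 5 were selected as the nearest of 182 candidates. Each 5p arm is also part of the sum it is compared with, and all of them lay below the median candidate.

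Beside the family, 3 comparison lists were fitted in the same model, and together 8 of their members rose and 2 fell, or 5 and 1 with p-values adjusted over the miRNAs alone. Over all 327 tested miRNAs 7.34% rose and 14.7% fell, or 4.28% and 6.73% by that adjustment. In the let-7 family 3 of 11 tested members rose and 0 fell, with a median log2 change of 0.26. let-7a-5p stood at 18193 ± 3528 RPM in KO and 9965 ± 1138 in WT (log2 change 0.87 ± 0.17, adjusted p = 9.39e-06, edgeR), let-7f-5p rose by 0.62 ± 0.17 (adjusted p = 0.000913, edgeR), and let-7g-5p at 0.26 ± 0.16 did not pass. In the miR-181 family 0 of 4 rose and 1 fell, miR-181a-5p at −0.59 ± 0.24 (adjusted p = 0.0198, edgeR), and miR-181c-5p at −0.42 and miR-181b-5p at −0.67 did not pass. Of 12 late germ cell miRNAs 5 rose and 1 fell, with a median of 0.30. Of their 3 most abundant entries miR-449a-5p rose by 0.44 ± 0.16 (adjusted p = 0.0106, edgeR), while miR-34b-5p at 0.10 and miR-34c-5p at 0.28 did not pass. Adjusted over the 327 miRNAs alone, miR-181a-5p and miR-449a-5p were no longer called (edgeR adjusted p = 0.0979 and 0.0694). The call of miR-181a-5p was also lost without KO replicate 3, WT replicate 1 or WT replicate 3 (edgeR adjusted p = 0.0513 to 0.114) and with TMM factors of the miRNAs (0.0536), and that of miR-449a-5p without WT replicate 1 (0.0552). Set beside these lists, the miR-30 family had 1 of 8 tested members higher and a median of −0.01.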

How the data were processed

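Small RNA libraries of purified round spermatids, 3 of Miwi KO and 3 of WT mice, were analysed. Per the labels' protocols, the mirVana kit served for isolation and the Ion Total RNA-Seq Kit v2 for library preparation. The authors deposited raw counts, as whole reads for each reference RNA. Per the file headers, featureCounts v1.5.0-p2 made them. The submitters' processing notes also name cutadapt, DESeq2 and build mm9. The aligner and the handling of reads with several matches are not known here. Positions are those of GRCm38.p6. A second table, of piRNA cluster entries, was not used.

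From the deposited counts, levels were scaled to 1000000 miRNA counts of each library. KO was compared with WT over the whole table of 45932 entries by edgeR's quasi-likelihood test (edgeR 4.0.16, R 4.3.3), with the miRNA total as library size and no replicate block. The filterByExpr filter was set to at least 10 counts, and 15 in total. Two-sided p-values were adjusted by Benjamini-Hochberg over every RNA tested, at a threshold of 0.05. Shares and ratios were compared by exact permutation tests (scipy 1.17.1). Arm ratios were also fitted with limma 3.58.1 (pseudocount 0.5, at least 10 counts of both arms in every library and 60 of the minor arm in all). The edgeR and limma steps were tested on simulated data. The edgeR simulation changed only a small part of the RNAs, so it did not cover a table in which 84.8% are called. Alternatives were TMM factors of the miRNAs or of the table, the table total, DESeq2 1.42.0, no filter or a stricter one, a replicate block, and leaving out libraries. The family's share was also taken without the 10 highest miRNAs. Intervals on counts cover counting error only, as reads carry no molecular identifiers.

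Named miRNAs were all members, the 5 nearest profiles and the 3 most abundant entries of each comparison list. Markers that lost their call when adjusted over the miRNAs alone were named as well. The members and lists were chosen with earlier results of these data known.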

Additional observations from a re-analysis of the deposited data

How the results depend on the processing

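The scaling decides whether the family as a whole appears higher in KO, and the same holds for the miRNAs in general. With TMM factors of the whole table, the table total, and DESeq2 with size factors of the whole table, in that order, the members called as higher were 8, 8 and 8, and the family's share of the whole table changed by 1.72 on the log2 scale. In the same order, miR-30a-5p was at 1.69, 1.52 and 1.73, miR-30d-5p at 1.80, 1.63 and 1.84, miR-30e-5p at 1.91, 1.74 and 1.95, and miR-30c-2-3p at 1.47, 1.30 and 1.52. miR-181a-5p was then at 1.35, 1.17 and 1.39, miR-181c-5p at 1.51, 1.33 and 1.54, and miR-181b-5p at 1.26, 1.08 and 1.30. The comparison lists had 31, 31 and 27 higher and 0, 0 and 0 lower, all miRNAs 338, 335 and 317 higher and 2, 3 and 2 lower, and all RNAs 8613, 7810 and 7829 higher and 10199, 11060 and 9911 lower. With miRNA size factors, the miRNAs that fell were 30 by TMM and 21 by DESeq2, against 48, the listed RNAs that fell were 1 and 1, against 2, and miR-30e-5p was at 0.10 and 0.10. Adjusted over the miRNAs alone, 0 members rose, 14 miRNAs rose and 22 fell, and in the lists 5 rose and 1 fell. Without a filter 5 listed RNAs fell, and under the stricter filter, which tests fewer RNAs, 7266 of all RNAs fell. Without both replicate 3 libraries miR-30d-5p was at 0.036 and miR-30c-2-3p at 0.12. The cause of these shifts was not tested beyond the scaling or filter itself.

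The replicate numbers were not taken as pairs, since same-numbered KO and WT libraries correlated at 0.017, 0.064 and 0.101 in their deviations over all RNAs, and at −0.144, 0.221 and 0.118 over miRNAs. Over all RNAs each library correlated best with its own number, which is a hint from the data and not from the design. With the replicate block 1 member fell, miR-30a-5p at −0.24 (edgeR adjusted p = 0.0409), and over all miRNAs 30 rose and 56 fell.

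With each library left out in turn, 1 member rose and 0 fell in every case, and the comparison lists had 6 to 9 higher and 1 to 3 lower. The log2 change ran from −0.051 to 0.076 for miR-30b-5p, −0.049 to 0.086 for miR-30c-5p, −0.23 to 0.014 for miR-30d-5p, −0.16 to 0.077 for miR-30e-5p and −0.081 to 0.25 for miR-30e-3p, and from −0.35 to −0.15 for miR-30a-5p. The family's share changed by −0.091 to 0.032 on the log2 scale. The KO minus WT difference of the 3p share ran from −0.0147 to 0.0147 points for miR-30b and from −0.207 to 1.39 for miR-30e, whose limma ratio ran from −0.072 to 0.39. The log2 ratio ran from −0.041 to 0.084 for miR-30b-5p over miR-30c-5p, −0.068 to 0.17 for miR-30b-5p over miR-30e-5p, −0.030 to 0.12 for miR-30c-5p over miR-30e-5p and −0.19 to 0.045 for miR-30d-5p over miR-30e-5p.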
